A study of Mus musculus with 173 samples.

Results

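Oxidative phosphorylation is carried out in the inner mitochondrial membrane by 5 protein complexes, most of whose subunits are coded in the nucleus. Complexes I (Nduf genes) and II (Sdh genes) pass electrons to ubiquinone, complex III (Uqcr genes) passes them on to cytochrome c, and complex IV (Cox genes) passes them to oxygen. Complex V (Atp5 genes) is the ATP synthase, which is driven by the protons that complexes I, III and IV pump. In the adult dentate gyrus, stem cells with glial traits are described as relying more on glycolysis and fatty acid oxidation, and neurons as relying heavily on oxidative phosphorylation. Genes were taken by symbol: those that begin with Nduf, Uqcr or Atp5, Sdha to Sdhd, and Cox followed by a digit from 4 to 8. Values are TPM, a length-scaled share of a library's transcripts in which every library has the same total. Of 92 such rows, 86 were kept because 5% of libraries or more reached 1 TPM, a filter that 12007 of all 23307 rows passed. They were 44 of 45 rows for complex I, 4 of 4 for complex II, 8 of 8 for complex III, 14 of 18 for complex IV and 16 of 17 for complex V. Among the 86, 75 code for structural subunits. The other 11 carry the same prefix but have other roles, such as the 7 Ndufaf assembly factors, which help to build complex I. Ndufa4, now placed in complex IV, was grouped with complex I by its symbol.

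The study profiled single cells of the dentate gyrus of C57BL/6 mice aged 8 to 12 weeks, to describe stem cells at rest and the cells they give rise to first. The titles give 3 classes by their first letter, N (26 libraries), R (4) and C (the rest of the 172), and the labels do not say what the letters stand for. Strain, age and tissue were shared by all 3 classes, and no treatment is labelled. The table holds a row for a custom eCFP sequence, which lay between 482 and 33811 TPM in C, between 17.3 and 1306 in N and between 5.01 and 107.9 in R. Neither the promoter behind it nor the number of animals is labelled. Because no animal is named, each class counts as 1 sample of cells. All values below are therefore descriptions, SDs are between libraries, and no p-value was computed.

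Libraries reached 1 TPM in 1717 to 7192 genes in C, in 1600 to 4885 in N and in 2476 to 3838 in R. Depth is unknown because TPM keeps no read numbers. In a grouping of all libraries into 8 clusters, 10 C, 20 N and all 4 R libraries lay in clusters 1, 7 and 8. The remaining C libraries and 6 N libraries lay in clusters 2 to 6, which are formed mainly of C cells. Cluster 1 held 11 of the 26 N libraries, and its mean log2(TPM + 1) of the endothelial and mural marker lists was 3.37 and 3.36. Cluster 7, with R1 and R3, had its highest list mean for mature neuron markers (4.40). Cluster 8, with R2 and R4, had its highest for oligodendrocyte precursor markers (4.67). The summed TPM of 17 neural stem cell markers had a median of 29245 in C, 1271 in N and 9642 in R, and Nes and Thbs4 were listed at 0 in every R library. The parts of these other cell types in the class differences below were not tested. A run of 33 samples deposited one after another, 30 C and 3 N, also stood apart, with low values of many short subunits, and is described at the end. Without it 21 of the 86 genes were higher in C than in N and 7 lower, 57 were higher in R than in C and 12 lower, and 69 were higher in the last than in the first bin of the order of C cells. Shares over all genes were not recomputed without the run, so these counts have no share to stand beside.

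Of the 92 rows, 6 did not pass the filter. Ndufa3, Atp5k, Cox7a1, Cox8b and Cox8c were listed at 0 in every library, and Cox7b2 was reached in 1 library (0.581% of all). Just inside the filter were Ndufaf6 at 6.40% of libraries, Ndufaf5 and Cox6a2 at 10.5% each and Cox6b2 at 11.05%. Cox6a2, Cox7a1 and Cox8b are known as heart and muscle forms of subunits whose common forms are Cox6a1, Cox7a2 and Cox8a. Of 26 symbols of genes coded in mitochondrial DNA, 0 had a row, so the mitochondrially coded core subunits of complexes I, III, IV and V were not analysed here.

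Detection was patchy even for these housekeeping genes. Of all values of the 86 genes, 34.1% were listed at 0, against 59.7% for all genes that passed the filter. The shares of all genes given beside the 86 below are thus not at like levels. A TPM of 1 was reached in at least 90% of libraries by 8 genes, in every library by 0, and in fewer libraries than not by 18. The most widely reached were Ndufa13, a complex I subunit, and Atp5a1, the alpha subunit of the ATP synthase, each in 96.5% of libraries. The 10 most abundant genes held 35.02% of the summed TPM of all 86. Cox7c, a small complex IV subunit, had the highest mean at 3026 TPM over all libraries, followed by Atp5e (epsilon subunit of complex V) at 2032, Ndufc2 (membrane arm of complex I) at 1989.5 and Uqcr11 (small subunit of complex III) at 1947. Even within complex II, whose 4 subunits assemble in equal numbers, mean TPM ranged from 275 for Sdhd to 707 for Sdhb.

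Promoters are shown for 4 genes whose class differences are described in full below. Ndufc2 had the largest C minus N difference, and Atp5g1, Atp5g2 and Atp5g3 code for the same mature c subunit of the ATP synthase but took unlike shares across the classes. The sequences are the 120 bases before the start site, from RefSeq on GRCm38.p6, which is a later build than the mm9 of the deposited values, and each reads 5′ to 3′ along the gene. Ndufc2 lies at chr7:97399883-97400002 on the plus strand, Atp5g1 at chr11:96075632-96075751, Atp5g2 at chr15:102671048-102671167 and Atp5g3 at chr2:73911327-73911446, these 3 on the minus strand. Capitals mark CGCATGCG, the core of the site bound by NRF1, a factor known for activating genes of the respiratory chain.
Ndufc2: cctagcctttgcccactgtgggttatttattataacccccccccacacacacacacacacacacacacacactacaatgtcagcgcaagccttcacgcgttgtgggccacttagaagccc
Atp5g1: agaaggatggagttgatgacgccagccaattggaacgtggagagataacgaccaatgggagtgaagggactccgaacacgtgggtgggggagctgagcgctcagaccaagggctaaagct
Atp5g2: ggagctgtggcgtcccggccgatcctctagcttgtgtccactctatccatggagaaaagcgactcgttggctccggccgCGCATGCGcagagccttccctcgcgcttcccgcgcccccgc
Atp5g3: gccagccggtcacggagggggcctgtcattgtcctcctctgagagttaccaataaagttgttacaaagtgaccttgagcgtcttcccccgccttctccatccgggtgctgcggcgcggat

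A promoter entry was found for 68 of the 86 genes. The 250 bases before a start held CGCATGCG, on either strand, in 7 of them: Ndufa8, Ndufa11, Ndufaf4, Cox6a1, Atp5g2, Atp5j and Atp5l. That is 10.3% of these genes, beside 3.62% of the 8885 genes with an entry that passed the filter and 1.75% of all 27025 genes with an entry. CCGGAAGT, an ETS family site that GABP can bind, was found in Uqcr11, Uqcrh and Atp5h (4.41%, beside 6.57% of passing genes and 3.23% of all). AAGATGGCG, a YY1 site, was found in Atp5j alone (1.47%, beside 1.46% and 0.711%), which thus held both this word and the NRF1 core. Any of the 3 words, whose ends can overlap, was held by 10 of 68 genes (14.7%), beside 11.1% of passing genes and 5.45% of all. Of the 4 promoters printed above, the one of Atp5g2 holds a match, and a match describes the letters only.

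The summed TPM of the 86 genes took 1.61% to 13.8% of a C library (median 4.91%) and 2.88% to 10.05% of an N library (median 5.12%). In R the sum was 7.79%, 7.84%, 7.70% and 7.69% in R1 to R4. The ranges of C and N overlapped over most of their length. The R libraries lay close together at the upper end of both, with 7 C and 1 N libraries above the lowest of them. In cluster 7, which holds R1 and R3, the sum was 8.27% in C133, 7.34% in C137, 5.81% in N18 and 6.81% in N19. In cluster 8, which holds R2 and R4, the C and N libraries ran from 3.28% (C45) to 7.64% (C132). Complex I took a median of 1.83% in C and 1.75% in N, and 2.58%, 2.92%, 2.74% and 2.90% in R1 to R4, with 22 C and 4 N libraries above the lowest of these. Complex IV took a median of 0.970% in C and 1.02% in N, and 1.91%, 2.18%, 2.14% and 1.57% in R. Complex V took a median of 1.07% in C and 1.14% in N, and 1.63%, 1.86%, 1.501% and 2.02% in R. For these 3 complexes every R value lay above the medians of C and N. Complex III overlapped most, with medians of 0.636% in C and 0.784% in N and values of 1.21%, 0.643%, 1.15% and 0.847% in R. Complex II was the smallest, with medians of 0.145% in C and 0.135% in N and values of 0.459%, 0.240%, 0.167% and 0.353% in R. Every R value of complex II also lay above both medians, while R2 of complex III lay below the N median.

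**Figure D1:**
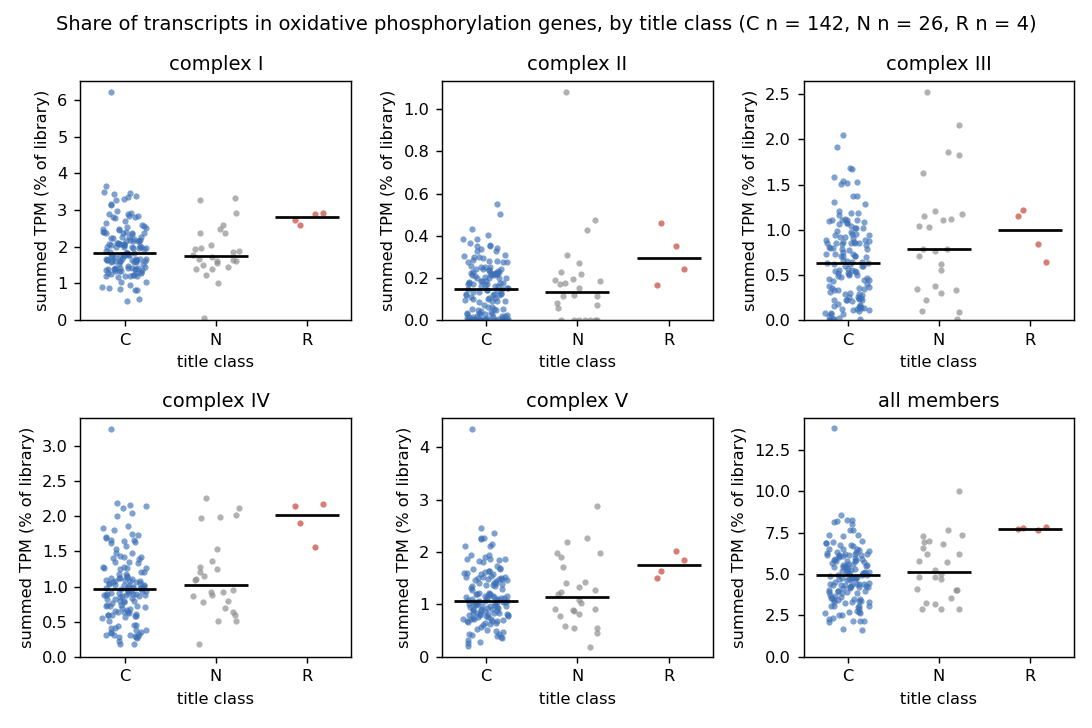
Summed TPM of all 86 genes and of each complex, as a percent of the library (y axis), by title class (x axis: C, N, R). Each point is 1 library and each black line is the class median. The 4 R libraries lie between 7.69% and 7.84% in the panel of all genes, above the medians of C (4.91%) and N (5.12%), while C and N overlap in every panel.

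Between C and N the complexes differed little as wholes, and single subunits differed strongly. Differences are between class means of log2(TPM + 1), and a gene is called higher or lower at a difference of at least 1. Of the 86 genes, 20 were higher in C and 6 were lower, beside 9.98% of all 12007 genes higher and 4.19% lower. The genes higher in C were 13 of complex I, 1 of II, 1 of III, 2 of IV and 3 of V, and those lower were 3, 0, 1, 1 and 1. The median difference was 0.24 for complex I, 0.68 for II, 0.03 for III, 0.55 for IV and 0.25 for V, beside 0.17 for all genes. After rescaling of the libraries by median ratio, 18 genes were higher and 10 lower. Without the libraries of clusters 1, 7 and 8, which leaves 6 N libraries, 17 were lower. Over all alternatives run, the genes higher in C numbered from 14 to 30. Shares over all genes were not recomputed for these settings, so their counts have no share to stand beside.

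Ndufc2 stood out. It was listed between 0 and 10665 TPM in C (median 1971), between 0 and 3291 in N (median 36.1), and at 709, 283, 185 and 0 in R1 to R4. Most C libraries lay above most N libraries although the ranges overlap: 13 C libraries and 15 of 26 N libraries were below 100 TPM. The means of log2(TPM + 1) were 10.27 ± 2.56 (SD over all C libraries) in C and 5.89 ± 3.87 (SD, n = 26) in N, a difference of 4.38, which ranked 23 among all 12007 genes. The 6 N libraries in clusters formed mainly of C cells had a median of 796 TPM and the other 20 N libraries one of 25.6. The 10 C libraries outside the clusters formed mainly of C cells had a median of 690. With the libraries of clusters 1, 7 and 8 left out of both classes, the difference was 2.69, with 6 N libraries left. Of the 15 low N libraries, 13 lay in clusters 1, 7 and 8, and the part of cell type was not tested.

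Within the other complexes, the genes furthest to the C side were as follows. Sdha, the flavoprotein of complex II that oxidises succinate, had a median of 50.3 TPM in C and 1.41 in N, with a difference of 2.52. Uqcr11 had medians of 1464 and 119.2 TPM and a difference of 1.69, and Cox7a2, a small complex IV subunit, had medians of 486.5 and 24.3 and a difference of 1.64. Atp5e had a median of 360.1 TPM in C and of 0 in N, with a difference of 2.02. Every one of these genes had libraries listed at 0 in both classes, so the classes overlapped fully at their lower ends.

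The genes furthest to the N side were these. Ndufb2, a membrane arm subunit of complex I, had a median of 0 in C and 96.4 TPM in N and a difference of -1.88, which became 0.15 without the libraries of clusters 1, 7 and 8. Uqcrb, the ubiquinone-binding subunit of complex III, had medians of 631 TPM in C and 888 in N (difference -1.53). Cox5b of complex IV had medians of 159 and 597 (-1.07), and Atp5b, the catalytic beta subunit of the ATP synthase, of 179 and 776 (-1.34). Atp5b thus lay on the N side while Atp5a1, its partner in the same ring, had medians of 159 TPM in C and 153 in N and a difference of -0.09. Among the marker lists that were higher in N, the oligodendrocyte list (12 of 12 markers reached in both classes) had a summed TPM of 0 to 3110 in C (median 22.6) and 1.51 to 66995 in N (median 96.2). The endothelial list (9 of 9 reached in both) had medians of 1.14 and 9.37. Their part in these differences was not tested.

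In R most subunits of each of the 5 complexes were higher than in C. Of the 86 genes, 58 were higher by at least 1 and 8 were lower, beside 20.9% of all genes higher and 22% lower. The median difference was 2.01 over the 86 genes and -0.36 over all genes. By complex, the genes higher in R were 28 of 44, 3 of 4, 6 of 8, 9 of 14 and 12 of 16, with medians of 1.66, 2.52, 2.83, 1.89 and 2.72 for I to V. All 58 were structural subunits, of 75 measured. Of the 7 Ndufaf assembly factors, 0 were higher and 1 was lower, with a median difference of -0.57. Their median of mean log2(TPM + 1) was 1.29 in C, which left little room for lower values. R minus N shares the R libraries with this comparison and its values are given beside it: 60 genes were higher and 7 lower (beside 23.8% and 17.5% of all genes), with a median of 2.44.

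**Figure D2:**
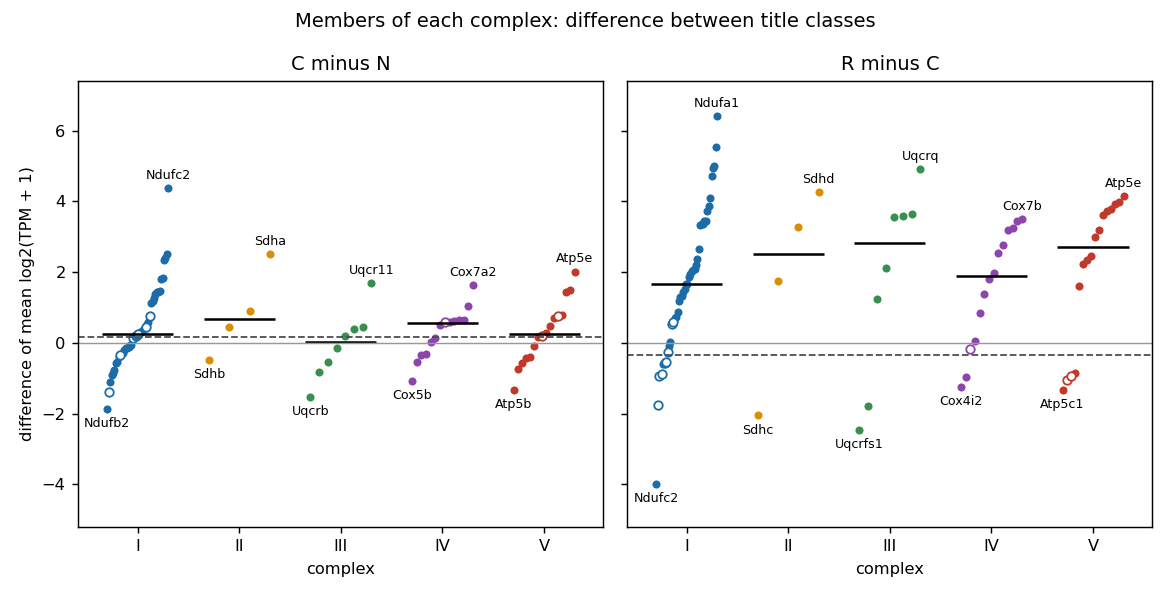
Difference in mean log2(TPM + 1) of each gene for C minus N and for R minus C (y axis), by complex (x axis). Points are genes, open circles mark those that are not structural subunits, black lines are the medians of the complexes and the dashed line is the median of all genes. For R minus C the 5 complex medians lie between 1.66 and 2.83 with all genes at -0.36, and for C minus N they lie between 0.03 and 0.68.

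Complex I gave the widest spread in R. Ndufa1, an accessory subunit needed to build the membrane arm, was at 583, 1604, 1607 and 967.5 TPM in R1 to R4, against a median of 0 (highest 16591) in C and 9.79 (highest 3450) in N. All 4 R libraries reached it, whereas 82 C and 13 of 26 N libraries were listed at 0, and the difference from C was 6.40. Among the nuclear-coded core subunits, which hold the flavin and iron-sulfur centres or build the quinone site, Ndufs1 (3.88), Ndufv2 (1.95), Ndufs8 (1.86) and Ndufs7 (2.03) were higher in R. Ndufs3 (0.72) and Ndufv1 (0.03) were not called. Ndufc2 was the lowest at -3.98, and without R4, where it is listed at 0, the difference was -1.88.

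In complex II, 3 of the 4 genes were higher in R, and the membrane anchors differed from each other. Sdhd, a membrane anchor, was at 1256, 1512, 496 and 1.70 TPM in R1 to R4, against a median of 2.31 in C (highest 4194) and 3.09 in N (highest 1760), with a difference from C of 4.26. Its partner Sdhc, the other anchor, was at 0, 1.86, 25.8 and 0 TPM in R against a median of 2.41 in C (highest 3019), with a difference of -2.05. R1, R2 and R3 are thus high in Sdhd and at no more than 25.8 TPM in Sdhc. Sdhb, the iron-sulfur subunit, was at 2744, 63.01, 843 and 3524 TPM in R, against medians of 382 in C and 768 in N, with a difference from C of 3.28.

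In complex III, Uqcrq, a small subunit near the quinone site, was at 4400, 1394, 998 and 1658 TPM in R1 to R4, against a median of 236 in C (highest 6717) and 330 in N (highest 10885), a difference from C of 4.90. The core proteins Uqcrc1 and Uqcrc2 had differences of 3.55 and 3.58. Uqcrfs1, the Rieske iron-sulfur protein and a catalytic subunit, was listed at 0 in all 4 R libraries, at a median of 0 and a highest of 2114 TPM in C. It was reached in 43.6% of all libraries.

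In complex IV, Cox7c was at 6342, 3319, 5366 and 6716 TPM in R1 to R4, against medians of 2352 in C and 2182 in N, and Cox4i1, the common form of the regulatory subunit 4, was at 2319, 5461, 3485 and 2528 against 1379 and 1773. Every R library lay above both medians for both genes. Cox7b had the largest difference of the complex at 3.51, with 977, 548, 507 and 212 TPM in R against a median of 133.6 in C. The rarer forms stayed low: Cox4i2, a form known from lung and low oxygen, and Cox6b2, known from testis, were listed at 0 in all R libraries and held 4.64% of the Cox4i and 4.67% of the Cox6b mean TPM in C. Cox6a2 was at 690.0 TPM in R2 and listed at 0 in the other R libraries, and did not pass 26.7 TPM in any C or 11.1 in any N library.

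In complex V 4 of the 5 subunits of the F1 head were higher in R, and the gamma subunit was lower. Atp5e was at 619, 4495, 1509 and 3238 TPM in R1 to R4, against a median of 360.1 in C, with a difference of 4.14. Its median was 0 in the C cells of cluster 2, described at the end, and 1605 TPM in the other C cells of the order. R1 and R3 lay below the latter value. Over the alternatives run, the difference ranged from 2.94 to 5.34. Atp5a1 (1535, 848, 828 and 2011 TPM, difference 3.97), Atp5d (3.79) and Atp5b (2.22) were also higher. Atp5c1, the gamma subunit that turns inside the head, was at 1119, 0, 2298 and 0 TPM against a median of 281 in C, with a difference of -1.34. R1 and R3 are thus above that median and R2 and R4 are listed at 0, and the difference was 0.44 without R2 and 0.44 without R4. For this gene 2 libraries set the sign.

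Agreement over all 4 R libraries was counted apart from the means. In 23 of 86 genes (26.7%) every R library lay above the C median, beside 3.63% of all genes, and these were 8 of complex I, 0 of II, 2 of III, 6 of IV and 7 of V. The C medians used here include the run of deposits described at the end. In 43 of 86 every R library was above 0, beside 9.77% of all genes. In 7 genes (8.14%, beside 30.6% of all genes) all 4 were at 0: Ndufaf2, Ndufaf5, Ndufaf6, Uqcrfs1, Cox4i2, Cox6b2 and Atp5sl.

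Marker genes of neurons were also high in R. Of 13 mature neuron markers, 11 reached a TPM of 1 in R, and their summed TPM ran from 4483 to 10264 (median 7256), against 1.31 to 5469 in C (median 185) and 1.87 to 5841 in N (median 74.7). Some lists of other types were also above their C medians. The oligodendrocyte list (8 of 12 markers reached, Gjb1 at 0 in all) summed to 502 to 2007 TPM, beside a C median of 22.6. The microglia list (6 of 10 reached, with C1qc, Tmem119, Aif1 and Itgam at 0) summed to 34.3 to 978.5, beside 4.67 in C. The erythroid list (5 of 5 reached) summed to 23.5 to 1235, beside 0 in C. The neuroblast list (8 of 12 reached, with Dlx1, Dlx2 and Cd24a at 0) summed to 327 to 2151, beside 70.2. The endothelial list (1 of 9 reached) ran from 0 to 1370 (median 360), beside 1.14. The oligodendrocyte precursor list (3 of 9 reached) ran from 1.03 to 340 (median 53.4), beside 1.64. The stem cell, astrocyte, intermediate progenitor and mural lists had medians in R below those in C. The part of these markers in the higher subunit levels was not tested. Other metabolic genes, from lists chosen with earlier results known, moved to different degrees. Of 16 glycolytic genes, 13 were higher in R than in C and 1 was lower (median difference 2.39), and of 17 citric acid cycle genes 9 were higher and 3 lower (1.10), beside the 20.9% and 22% of all genes. Cs, citrate synthase, had a difference of 6.29. Of 11 genes that export or buffer ATP, 7 were higher and 2 lower (median 2.07), among them Slc25a4, an ADP and ATP carrier (2.75), and Ckmt1, the mitochondrial creatine kinase (3.93). By contrast, of 32 assembly factors 5 were higher and 7 lower (median -0.47), and of 75 mitochondrial ribosomal protein genes 22 were higher and 21 lower. The regulators of mitochondrial biogenesis had 1 of 13 higher and 4 lower. These lists were low in C. Their median of mean log2(TPM + 1) was 0.997 for assembly factors, 2.20 for mitochondrial ribosomal proteins and 0.88 for regulators, against 5.32 for the 86 genes. A gene with a C mean below 1 cannot be called lower, so the lists are not compared at like levels.

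The c subunit of the ATP synthase showed a difference between isoforms. Atp5g1 was at 2884, 1336, 252 and 2727 TPM in R1 to R4, against medians of 279 in C and 367 in N, and Atp5g3 at 756.0, 2572, 999 and 1092, against 354 and 428. Atp5g2 was at 94.2, 13.1, 251 and 61.5 TPM, against medians of 292 in C and 175 in N, with all 4 R libraries below the C median. As a share of the 3 genes' sum, Atp5g2 took 2.52%, 0.335%, 16.7% and 1.59% in R1 to R4, against medians of 27.95% in C and 21.2% in N. The classes overlapped, since 65 C and 11 of 25 N libraries with any Atp5g value were at or below the highest R value. Taken over mean TPM, Atp5g2 made up 3.22% of the sum in R, 40.05% in C and 34.1% in N. The R minus C difference was 3.18 for Atp5g1, 3.603 for Atp5g3 and -0.86 for Atp5g2.

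**Figure D3:**
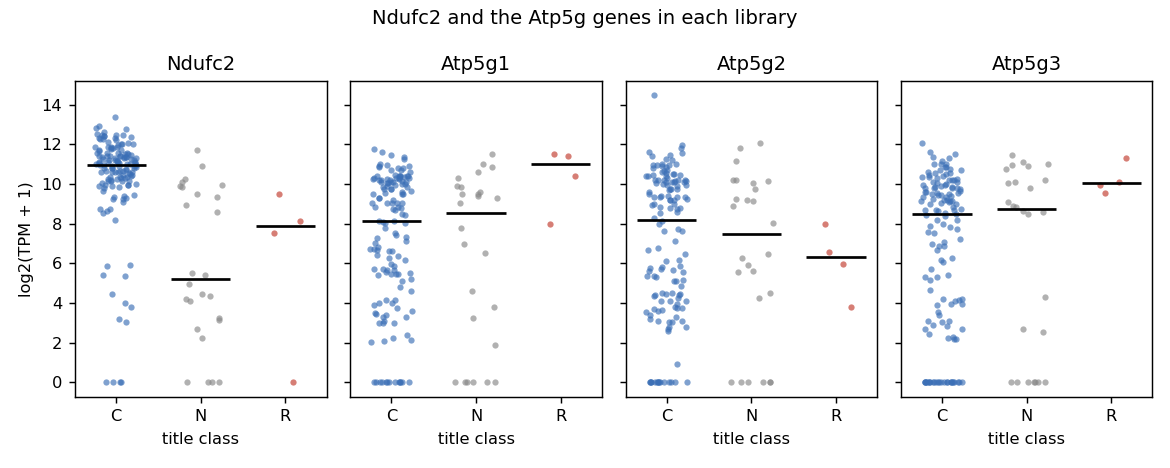
Log2(TPM + 1) of Ndufc2, Atp5g1, Atp5g2 and Atp5g3 (y axis) by title class (x axis), with 1 point per library and a line at the class median. Ndufc2 has medians of 1971 TPM in C and 36.1 in N, and Atp5g2 lies between 13.1 and 251 TPM in R where Atp5g1 reaches 2884.

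Within C, cells outside clusters 1, 7 and 8 were ranked by their score on principal component 1 of the most variable genes. The 86 genes, all listed genes and ribosomal protein genes were not among those variable genes. The component held 5.40% of the variance and was directed so that intermediate progenitor genes lie above stem cell genes. It was cut into 5 bins of 26 or 27 cells. Along it the number of the 86 genes reached rose, with bin medians of 46, 54, 55, 60 and 66.5. The first bin ran from 32 to 51 genes and the last from 56 to 75, so these bins did not overlap. The mean log2(TPM + 1) over the 86 genes had bin medians of 3.64, 4.37, 5.01, 5.64 and 6.34, and the first and last bins again did not overlap (highest 4.74 and lowest 4.82). Spearman's rho with the rank was 0.82 for genes reached and 0.81 for the mean level, with each cell giving both values from the same library.

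The summed share had bin medians of 4.88%, 4.72%, 5.13%, 4.85% and 4.85% (rho 0.12). The last minus first difference of these medians was -0.03 percentage points and ran from -0.27 to 1.28 over the alternatives, the highest among libraries of at least 3000 genes. Cells of the first bin held their share in fewer genes. The 5 highest genes held 47.99% of the sum in the first bin and 30.35% in the last (rho -0.68). The share was 4.56% ± 1.61 (SD, n = 27) in the first bin against 4.96% ± 0.947 (SD, n = 26) in the last. The share was thus spread over more genes in the last than in the first bin. Other measures moved with the rank as well: genes per library had a rho of 0.37, and the mean log2 of ribosomal protein genes one of 0.86. The summed stem cell markers had a median of 32514 TPM in the first bin and 4497 in the last, and the 11 intermediate progenitor markers of 52.6 and 1900.5, as the direction of the order was set to give. Their part in the result was not tested. The order was also compared with the sequence of deposit, in which all but 1 of these cells have a place: rho between them was 0.29. With the deposits split in sequence into 3 parts of 43 or 44 cells, rho of the rank with genes reached was 0.81, 0.81 and 0.79, and with the mean level 0.80, 0.81 and 0.83. These parts gave 13, 11 and 3 cells to the first bin and 5, 7 and 14 to the last. The bins thus differed in deposit place, and its part in the differences between bins was not tested. With genes per library partialled out, the median rho of the 86 genes was 0.17, the same as without.

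**Figure D4:**
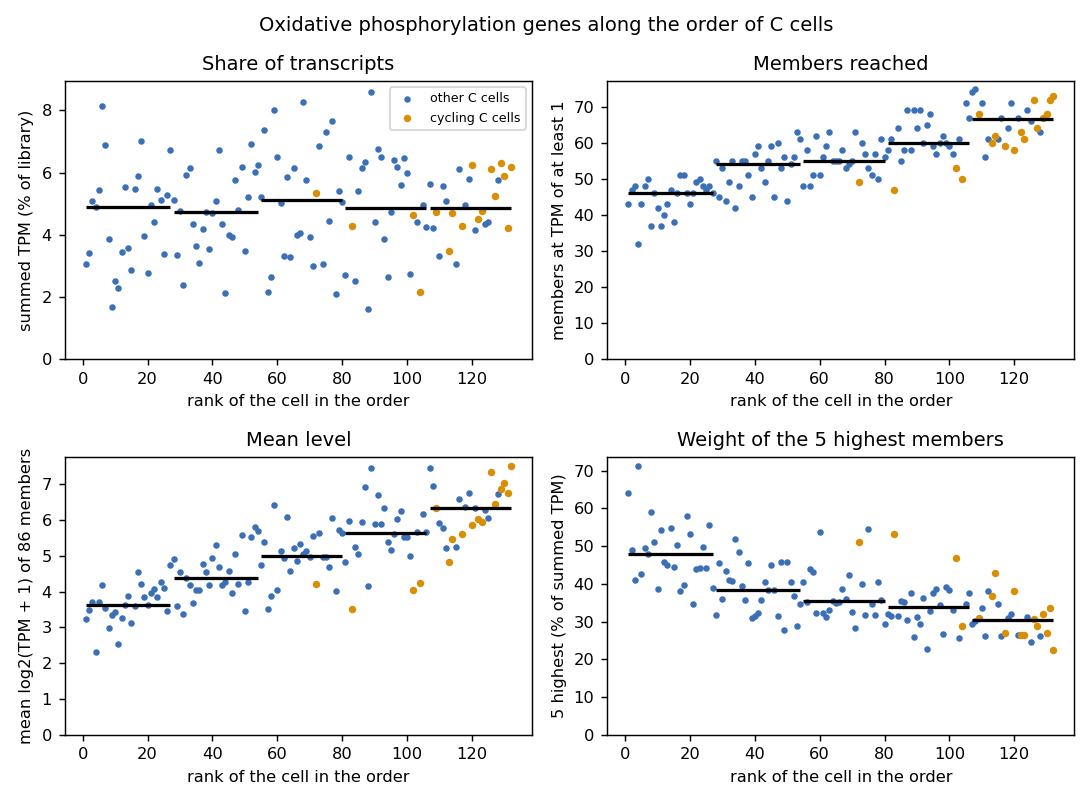
Measures of the 86 genes against the rank of the ordered C cells (x axis): summed share in percent, genes reached, mean log2(TPM + 1), and percent of the sum in the 5 highest genes. Orange points are the 17 cycling cells and black lines are bin medians. Genes reached rise from 46 to 66.5 and the weight of the 5 highest falls from 47.99% to 30.35%, with the share flat between 4.72% and 5.13%.

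Comparing the last bin with the first, 74 of 86 genes were higher and 0 were lower by at least 1, beside 27.1% and 2.97% of all genes, with a median difference of 2.57 against 0.35 for all genes. All genes were listed at 0 more often than the 86, so these shares are not compared at like levels. Rescaling the libraries in the same order lowered these medians to 1.89 and 0.14 and the count to 64. By complex the genes higher in the last bin were 37 of 44, 4 of 4, 8 of 8, 10 of 14 and 15 of 16. Spearman's rho was above 0 in 82 of 86 genes, beside 70.1% of all genes, and at least 0.2 in 33, beside 16.8%. The median rho was 0.16 for complex I, 0.20 for II, 0.20 for III, 0.16 for IV and 0.25 for V, beside 0.069 for all genes. Complex V had the highest share of genes at a rho of at least 0.2, with 10 of 16.

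The genes with the highest rho in each complex had higher medians or were reached in more cells in the last bin than in the first. Ndufa5, a subunit of the matrix arm, was reached in 7 of 27 cells of the first bin (median 0) and 25 of 26 of the last (median 206 TPM), with a rho of 0.40. Atp5b had a median of 6.17 TPM in the first bin and 619.7 in the last (0.39), and Sdhd of 0 and 398 (0.36). Uqcrh, the hinge protein of complex III, had medians of 0 and 877 (0.33), and Cox5a of complex IV was reached in 6 of 27 and 17 of 26 cells (0.27). The lowest were Cox6a2 (-0.19), Ndufc2 (-0.10), Atp5sl (-0.067), Uqcr11 (0.086) and Sdha (0.12). Without the cells of cluster 2, rho was 0.06 for Cox6a2 and -0.12 for Uqcr11, and without the run of deposits around it, described at the end, 0.0074 and -0.054. Ndufc2 was already reached in all 27 cells of the first bin, with a median of 1920.3 TPM, and had 1612 TPM in the last. Of comparison lists, 86 of 88 cytosolic ribosomal protein genes, 51 of 75 mitochondrial ribosomal protein genes, 11 of 17 citric acid cycle genes, 11 of 32 assembly factors and 8 of 16 glycolytic genes were higher in the last bin, with 3 glycolytic genes lower.

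**Figure D5:**
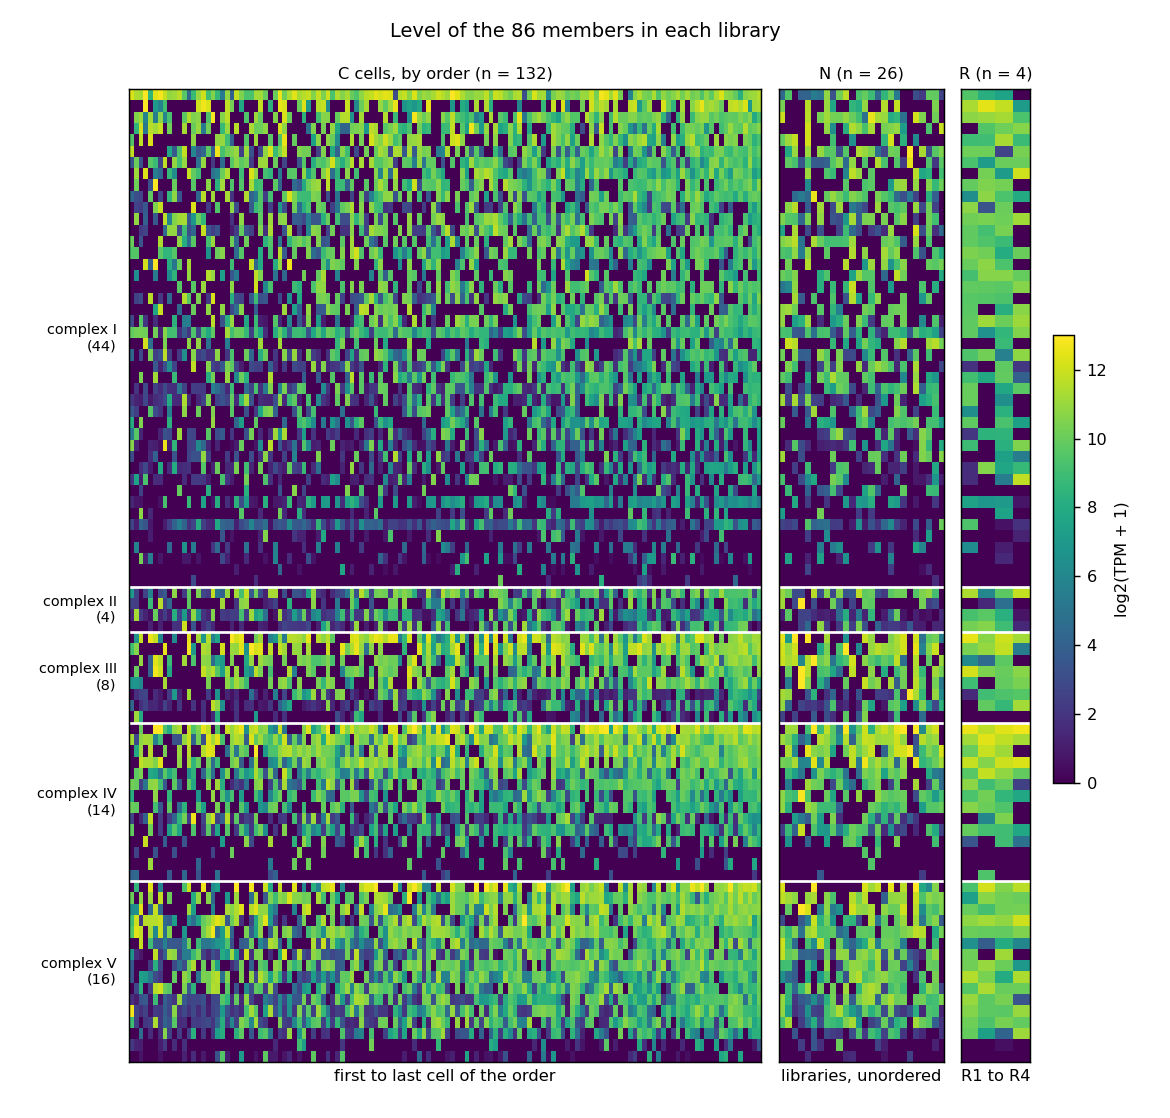
Log2(TPM + 1) of the 86 genes (rows, by complex and within it by mean TPM) in the ordered C libraries, 26 N and 4 R libraries (columns). Colour runs from 0 to 13, and higher values share the last colour. Few genes are reached at the start of the order (median 46 in the first bin) and more at its end (66.5 in the last).

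Cycling cells, defined as C cells of the order with a mean of at least 3 over the G2 and mitosis list, numbered 17, and 13 of them lay in the last bin. They are a range of a score, and 5 cells lay near the limit, between 2 and 4. Of the 86 genes, 38 were higher in cycling than in the other C cells of the order and 1 was lower, beside 16.6% and 6.32% of all genes, with a median difference of 0.88 against 0.01 for all. The medians were 0.85 for complex I, 0.29 for II, 1.31 for III, 1.21 for IV and 1.21 for V. Ndufc1, a membrane arm subunit of complex I, had a median of 2254 TPM in cycling and 58.6 in other cells (difference 3.08), and Atp5a1 of 545 and 40.8 (2.67). Uqcrh had medians of 623 and 359.6 and a difference of 3.04, and Cox7a2 of 795 and 325 (2.94). The non-cycling cells include all 21 C cells of cluster 2, described at the end, where Ndufc1 and Uqcrh had medians of 0. Over the alternatives, the run of deposits left out among them, the difference was 2.19 to 4.26 for Ndufc1 and 2.02 to 4.08 for Uqcrh. The genes higher in cycling cells then numbered from 27 to 51. Ndufb9 was lower, with medians of 27.9 and 351 (-1.30), and had a difference of -0.89 without the run of deposits described at the end. The summed share differed little: 4.74% in cycling and 4.95% in other cells, both medians. Stem cell markers were lower in the cycling cells, with a median sum of 3938 against 32260.0 TPM, and the parts of cell type and of place in the order were not tested.

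Covariation between single subunits was weak, within and across complexes. Across the ordered C cells the median Spearman rho between 2 genes was 0.037 for 1191 pairs of the same complex and 0.046 for 2464 pairs of different complexes, beside 0.027 for pairs of all passing genes. Within the complexes the median was 0.036 for I, -0.0075 for II (6 pairs), 0.10 for III (28 pairs), 0.024 for IV and 0.062 for V, and complex I gave 946 of the 1191 pairs. The highest pair was Uqcr11 and Cox6c (0.44). Both genes were low in the run of deposits described at the end, whose C cells are among those used here. The part of the run in this value was not tested. At the level of complex means, complexes I and V had the highest rho (0.73) and II and III the lowest (0.17). These means average unlike numbers of genes, 44 for I and 16 for V but 4 for II and 8 for III. The part of that number in the ranking was not tested. For the summed shares the order was another: I and IV had the highest rho (0.56), I and V had 0.42, and I and II had the lowest (0.0044). These pairs share libraries and gene number, so the values are descriptions.

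Cluster 2 held 21 C cells of the order, in which many short subunits were low, a comparison chosen after its values were seen. All 24 libraries of cluster 2 (21 C and 3 N) lay in a run of 33 samples deposited one after another, and the other 9 of the run were C cells of other clusters. In those 9 cells the summed share ran from 2.10% to 3.86% (median 2.73%), and the medians were 299.6 TPM for Cox7c, 0 for Uqcr11, 45.7 for Cox6c and 27.3 for Atp5j2. They thus lay near the medians of cluster 2 given below, and the low values were not particular to the cluster. The labels name no batch, and the part of shared handling was not tested. The 86 genes had no part in making the clusters. In the 21 cells of cluster 2 the summed share ran from 1.61% to 4.76% (median 3.32%), against a median of 5.13% in the other C cells of the order, those 9 included. Of the 86 genes, 39 were lower by at least 1 and 5 were higher, beside 9.16% of all genes lower and 6% higher. Complex III took a median of 0.175% in cluster 2 and 0.732% in the other cells, complex IV 0.409% and 0.995%, complex I 1.38% and 1.96%, and complex V 0.806% and 1.13%. Complex II took 0.170% and 0.145%, and 0 of its 4 genes were called.

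The genes lower in cluster 2 included some of the most abundant of the 86. Cox7c had a median of 177 TPM in cluster 2 (highest 712) and 2808 in the other cells, and Uqcr11 one of 52.3 (highest 407) and 2122. Cox6c, a small complex IV subunit, had medians of 31.6 and 1195.5, and Atp5j2, the f subunit of the ATP synthase, of 34.9 and 1018. In each, the highest cell of cluster 2 lay below the median of the other cells. Cox4i1 had medians of 1482 and 1430.0 TPM and was not called. Cox6a1 (642 against 169.7 TPM), Cox6a2 (3.84 against 0) and Ndufa4l2 (22.2 against 0), a gene known to respond to low oxygen, were among those higher. Cox6a2 also reached 1 TPM in C12 and C38, cells of the run outside cluster 2, and in C62 and C121 outside the run. The part of the run in these higher values was not tested.

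Transcript length moved with this result. By the median length of GENCODE protein-coding transcripts, 20 of 27 genes of at most 600 bases were lower in cluster 2, against 19 of 59 longer ones, and rho between length and difference was 0.43 over the 86 genes. Short genes outside the 86 and outside the ribosomal proteins were lower in 65 of 339 cases, against 905 of 10701 longer genes. They took 4.48% of a library of cluster 2 at the median, and between 5.26% and 7.01% in clusters 3 to 6. For the 86 genes the same rho was 0.03 for C minus N, -0.24 for R minus C, -0.31 for last minus first bin and -0.34 for cycling minus other cells. Genes per library had medians of 3846 in cluster 2 and 3643 in the other cells. The part of transcript length was not tested, and 8, 4, 7, 2 and 0 cells of cluster 2 lay in bins 1 to 5 of the order.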

How the data were processed

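Single-cell RNA of the mouse dentate gyrus was read from 1 table of the whole series. TPM values were deposited by the authors, made with RSEM on the mm9 mouse build per the submitters' processing notes, and library preparation used the NuGEN Ultralow V2 kit per the labels' protocols. No source used here states the RSEM version, the gene models or how cells were filtered. Each library summed to between 999999 and 1000001. TPM holds no read numbers, so depth is unknown, no interval or count test was possible, and an exact 0 can be a failed estimate (Gapdh was at 0 in 2 libraries). RSEM divides reads shared by near-identical copies, so values of Atp5g, Cox and Nduf genes with pseudogenes are uncertain.

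Classes follow the first letter of the titles, with 142 C, 26 N and 4 R libraries. Of 172 columns, 171 match 1 of 173 titles, and column C27 fits 2 titles and was used as C. The labels name no animal or batch, so each class is 1 sample, and differences are descriptions. Doublets were not called, and all libraries held at least 1000 genes. Genes needed a TPM of at least 1 in at least 5% of libraries. Values were used as log2(TPM + 1), which understates changes of low genes, and a difference of at least 1 was called. Libraries were clustered by Ward's method (8 clusters, 15 components, 2000 most variable genes). C cells outside clusters 1, 7 and 8, which were 132, were ordered by component 1 and cut into 5 bins. Clusters are given by number. Differences of means, Spearman's rho and shares of the library total were then computed for every gene, with Python 3.11.15, numpy 2.4.6, pandas 2.3.3 and scipy 1.17.1, and drawn with matplotlib 3.10.9. The scripts were tested on simulated data with known differences.

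The genes and lists were chosen with earlier results of these data known. Named genes are, per complex, the 3 with the highest mean TPM, the extremes of each comparison and of rho, all members of isoform groups, those at the filter limit, and other members named as part of their complex. From comparison lists, genes with named roles were added after their values were seen. Promoters come from RefSeq (GRCm38.p6), and the printed starts were found among GENCODE vM21 transcripts except that of Atp5g1. Promoter words were searched as their letters on both strands, and the NRF1 word was shortened to its core of 8 bases after a first search. No coordinates of mm9 are given. Alternatives were other pseudocounts (0.1 and 10), filters, scaling by median ratio, at least 3000 genes per library, structural subunits only, other orders, other cycling limits and left-out libraries. Leaving out cluster 2 or the run of deposits around it, 3 parts of the deposit sequence and some alternatives for R minus N, shares and covariation were added after the data were seen. The values of some members are not reported singly here.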

Additional observations from a re-analysis of the deposited data

How the results depend on the processing

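No paired analysis was possible because the results come from no test and the numbers in the titles only name cells. Of the recomputed summary values, 515 stayed close (counts within 1.5 times, levels within 1 SD) and 15 moved. For differences this SD was between libraries of the second group, and for rho it was between genes or pairs. In N it ran from 1.16 for complex I to 2.15 for complex III, above every C minus N median of a complex. Staying close therefore says little about those medians. Of the values of single genes 474 stayed close, 6 moved, and 4 called values changed sign. Close here meant within the gene's own SD over all libraries, or within 0.1 for rho, which is also a wide limit. Among values that were not called, 10 changed sign, some of those that moved included (at most 0.36 in size as a difference and 0.19 as rho): Sdhb and Uqcrfs1 in cycling cells, and Atp5sl, Cox6a2 and Uqcr11 along the order. The C minus N median of complex III ran from -0.44 to 0.51. Genes lower in R than in C numbered 15 with a pseudocount of 0.1 and 5 with one of 10, and from 6 to 16 when 1 R library was left out (16 without R3). Genes lower in R than in N numbered 12 without the libraries of clusters 1, 7 and 8, and from 6 to 13 when 1 R library was left out (13 without R3). Genes lower in C than in N numbered 3 with a pseudocount of 10, 10 after rescaling and 17 without the libraries of clusters 1, 7 and 8, where 6 N libraries remain. Genes lower in cycling cells numbered 7 with a pseudocount of 0.1, 3 after rescaling, 4 among libraries of at least 3000 genes, 3 with a list mean of at least 4 and 2 without the run of deposits around cluster 2. Shares over all genes were not recomputed under the alternatives, so these counts have no share to stand beside. The median last minus first bin difference was 3.602 with a pseudocount of 0.1 and 1.33 with one of 10. Among called values the sign changed for Ndufb2 in C minus N (0.15 without the libraries of clusters 1, 7 and 8) and for Atp5c1 in R minus C, which was 3.39 among libraries of at least 3000 genes (2 R libraries) and from -3.29 to 0.44 when 1 R library was left out. The median R minus C difference by complex stayed above 0 under every alternative run, from 1.12 to 2.79 for I, 1.86 to 3.57 for II, 1.88 to 3.33 for III, 1.47 to 2.79 for IV and 1.95 to 3.23 for V. Unless named above, the cause of a change was not tested. Depth is unknown, R has 4 libraries, and rare genes were listed at 0 in most libraries.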
